A study of Mus musculus with 9 samples.

Results

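Of the 24532 genes listed for the mouse medial prefrontal cortex, 10 were examined because their expression lay at either of 2 separate levels from mouse to mouse. These genes are Nsg2, Sumo3, Tspan14, Gpx1, Fgf14, E2f3, Ate1, Adam22, Dag1 and Gas7. They were chosen from their FPKM in the 9 mice (sequenced fragments scaled to the length of the transcript and to the mapped fragments of the library), so their levels, and the differences between groups that follow from them, are given as a description and nothing is read from a call of them. RNA was sequenced from 3 CT, 3 WT_ST and 3 KO_ST mice, with a single library for each mouse. CT mice were wild type and unstressed, WT_ST mice were wild type and had gone through chronic restraint stress, and KO_ST mice were Fkbp5-/- and had gone through the same stress. All were of the C57BL/6 strain and 11 weeks old by the labels. The study's methods name C57BL/6J males, give a younger age, and describe daily restraint for weeks. The design holds no unstressed Fkbp5-/- mice, so genotype can be compared only among stressed mice.

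Most of these genes have general or neuronal roles and belong to different pathways. SUMO proteins are small modifiers that are coupled to lysines of target proteins and taken off again by proteases. Tetraspanins are membrane proteins that organise other membrane proteins, and glutathione peroxidases remove peroxides with glutathione as the electron donor. At neuronal membranes, intracellular FGF homologous factors bind voltage-gated sodium channels, ADAM22 anchors the secreted protein LGI1 at synapses, and dystroglycan links the extracellular matrix to the cytoskeleton. A gene can be transcribed from several start sites and spliced into several transcripts, and the FPKM of a gene depends on the transcripts to which a program assigns its reads.

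Between 43778471 and 61150128 reads were counted on genes in each mouse, and 14370 genes averaged at least 30 reads. Fkbp5, the targeted gene, lay at an FPKM of 6.46 to 7.61 in CT, 9.47 to 10.3 in WT_ST and 3.59 to 4.69 in KO_ST, so the lowest levels were in the mice labelled as knockouts. Markers of cortical excitatory neurons summed to an FPKM of 1442 to 1562, against 47.0 to 70.8 for markers of striatal neurons. Markers of neurons in general summed to 1871 to 2269 in CT, below all mice of WT_ST (2308 to 2471) and KO_ST (2406 to 2465). The more specific neuron lists overlapped between groups. Excitatory markers summed to 1508 to 1561 in CT, 1471 to 1560 in WT_ST and 1442 to 1562 in KO_ST. Inhibitory markers summed to 391 to 484, 429 to 463 and 460 to 478 in the same order. Markers of oligodendrocytes overlapped too, at 413 to 789 over all mice. Markers of astrocytes summed to 217 to 252 in CT, above all WT_ST mice (199 to 207), and to 192 to 234 in KO_ST. Markers of microglia summed to 76.6 to 97.0 in CT, 59.8 to 66.6 in WT_ST and 33.7 to 66.5 in KO_ST, and markers of blood to 82.8 to 775 over all mice. No marker of any list was at 0, and the part of cell composition in the levels of the 10 genes was not tested. In tissue RNA, fewer cells of a type and less RNA per cell cannot be told apart.

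The sequences just before the annotated starts of Sumo3, Gpx1 and E2f3 are shown as examples of genes whose low mice, described next, differ. Sumo3 was high in every KO_ST mouse, Gpx1 had the widest step, and E2f3 was low in 2 mice. Each run holds the 250 bases before a RefSeq transcript start (build GRCm38.p6), read 5′ to 3′ on the gene's strand, at chr10:77605847-77606096 (+), chr9:108338830-108339079 (+) and chr13:29986064-29986313 (-). Capitals mark GC boxes (GGGCGG) and CCAAT boxes (CCAAT) on either strand.
Sumo3: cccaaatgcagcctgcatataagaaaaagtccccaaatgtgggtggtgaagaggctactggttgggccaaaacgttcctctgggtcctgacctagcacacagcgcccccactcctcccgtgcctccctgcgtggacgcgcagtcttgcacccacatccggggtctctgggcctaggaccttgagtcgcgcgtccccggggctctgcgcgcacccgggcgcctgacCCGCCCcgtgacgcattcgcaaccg
Gpx1: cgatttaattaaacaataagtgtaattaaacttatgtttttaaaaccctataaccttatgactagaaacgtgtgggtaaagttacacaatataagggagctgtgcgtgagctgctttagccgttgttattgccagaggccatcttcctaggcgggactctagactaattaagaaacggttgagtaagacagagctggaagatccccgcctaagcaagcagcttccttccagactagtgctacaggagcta
E2f3: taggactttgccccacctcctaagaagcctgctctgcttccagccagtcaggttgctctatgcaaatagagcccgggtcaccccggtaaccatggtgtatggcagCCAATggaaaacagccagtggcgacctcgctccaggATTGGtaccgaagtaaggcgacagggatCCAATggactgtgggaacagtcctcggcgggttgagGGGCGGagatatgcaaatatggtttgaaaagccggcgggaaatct
The Sumo3 window shown held 1 GC box, the E2f3 window shown held both kinds of box, and the Gpx1 window held none of the motifs searched. Windows at other starts of the same gene differed. For Sumo3 they held 3 GC boxes or none of the motifs, and for E2f3 GC boxes only. RefSeq start windows were given for 9 of the 10 genes, 16 windows in all, with none for Gas7. A GC box stood in 9 of these 16 windows, against 32.7% of 32851 windows of all genes, and a CCAAT box in 6, against 33.8%. TATAAA (12.4% of all windows), the glucocorticoid receptor hexamer AGAACA (16.1%), the E2F sites TTTCGCGC (0.256%) and TTTGGCGC (0.417%) and the cyclic AMP response element TGACGTCA (1.55%) were in none of the 16. All motifs were searched on both strands. CpG pairs numbered from 2 to 36 in a window, with a median of 6 over all windows. Windows of the same gene can overlap, and none of the motifs searched was found in every window.

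Nsg2 encodes a membrane protein of neuronal endosomes and lies at chr11:31999704-32059211 (+). Its FPKM was 307, 318 and 286 in CT, 129.8, 121 and 123 in WT_ST and 122, 299 and 284 in KO_ST. All CT mice and 2 KO_ST mice were high, and all WT_ST mice and the remaining KO_ST mouse were low, so WT_ST lay wholly below CT while KO_ST covered both levels. No mouse lay between 129.8 and 284. On the reads themselves, 12482 to 14987 were counted in the 4 low mice and 32180 to 44026 in the 5 high mice.

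Sumo3 encodes a SUMO modifier and lies at chr10:77606097-77618331 (+). Its FPKM was 49.9, 16.2 and 15.2 in CT, 18.0, 16.8 and 18.7 in WT_ST and 52.0, 52.4 and 50.8 in KO_ST. Every KO_ST mouse and 1 CT mouse were high and the other 5 mice were low. KO_ST lay wholly above WT_ST, and above CT only by the distance from 49.9 to 50.8. Between 2034 and 2426 reads were counted in the low mice and between 6136 and 8242 in the high mice.

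Tspan14, whose product is a tetraspanin that helps the protease ADAM10 mature, lies at chr14:40906427-40967073 (-). Its FPKM was 6.64, 6.14 and 6.69 in CT, 20.4, 6.71 and 19.8 in WT_ST and 6.82, 19.8 and 19.4 in KO_ST. The low level was shared by all CT mice, 1 WT_ST mouse and 1 KO_ST mouse. Neither stressed group overlapped CT, but the lowest WT_ST mouse stood above the highest CT mouse only by 6.71 against 6.69.

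Gpx1 encodes the main cytosolic glutathione peroxidase, a selenoprotein, and lies at chr9:108339080-108340342 (+). Its FPKM was 9.73, 9.75 and 57.3 in CT, 9.87, 45.6 and 9.0 in WT_ST and 45.3, 43.9 and 7.72 in KO_ST. Each group held mice of both levels and all groups overlapped. With a 4.44-fold step between the highest low mouse and the lowest high mouse, Gpx1 had the widest step of the 10 genes. The reads were 421 to 637 in the 5 low mice and 2122 to 2997 in the 4 high mice.

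Fgf14, an intracellular partner of sodium channels, E2f3, a transcription factor of the cell cycle, and Ate1, the arginyltransferase that marks proteins for the N-degron pathway, were each low in 2 mice of different groups. Fgf14 (chr14:123974441-124677686, -) lay at an FPKM of 13.2, 13.4 and 5.42 in CT, 12.6, 12.7 and 14.0 in WT_ST and 13.8, 4.82 and 12.7 in KO_ST. The low mice were CT replicate 3 and KO_ST replicate 2, with 832 and 706 reads against 1979 to 2633 in the others. E2f3 (chr13:29906575-29986064, -) lay at 2.28, 7.17 and 7.62 in CT, 2.13, 6.63 and 7.85 in WT_ST and 7.36, 7.18 and 6.60 in KO_ST. Its low mice were replicate 1 of CT and replicate 1 of WT_ST. Ate1 (chr7:130391493-130520619, -) lay at 20.7, 21.0 and 19.0 in CT, 8.26, 19.2 and 21.3 in WT_ST and 20.8, 7.93 and 19.9 in KO_ST. Here WT_ST replicate 1 and KO_ST replicate 2 were low, and for all 3 genes the groups overlapped.

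Adam22, Dag1 and Gas7 were each low in a single mouse. Adam22, an ADAM family member without protease activity (chr5:8072347-8368312, -), lay at an FPKM of 32.4, 11.4 and 28.9 in CT, 28.8, 29.6 and 30.8 in WT_ST and 31.3, 31.7 and 28.9 in KO_ST. Only CT replicate 2 was low, with 5415 reads against 12647 to 18312. Dag1, which encodes dystroglycan (chr9:108204861-108263977, -), lay at 22.7, 24.6 and 21.2 in CT, 6.53, 23.1 and 22.1 in WT_ST and 21.1, 20.4 and 22.6 in KO_ST. Its low mouse was WT_ST replicate 1, with 1819 reads against 5202 to 7839. Gas7, an F-BAR protein that shapes membranes in neurons (chr11:67453257-67688992, +), lay at 123, 131 and 117 in CT, 120.0, 124 and 130.0 in WT_ST and 124, 44.6 and 118 in KO_ST. KO_ST replicate 2 was low, with 14478 reads against 38232 to 53171, and the groups overlapped for all 3 genes.

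**Figure D1:**
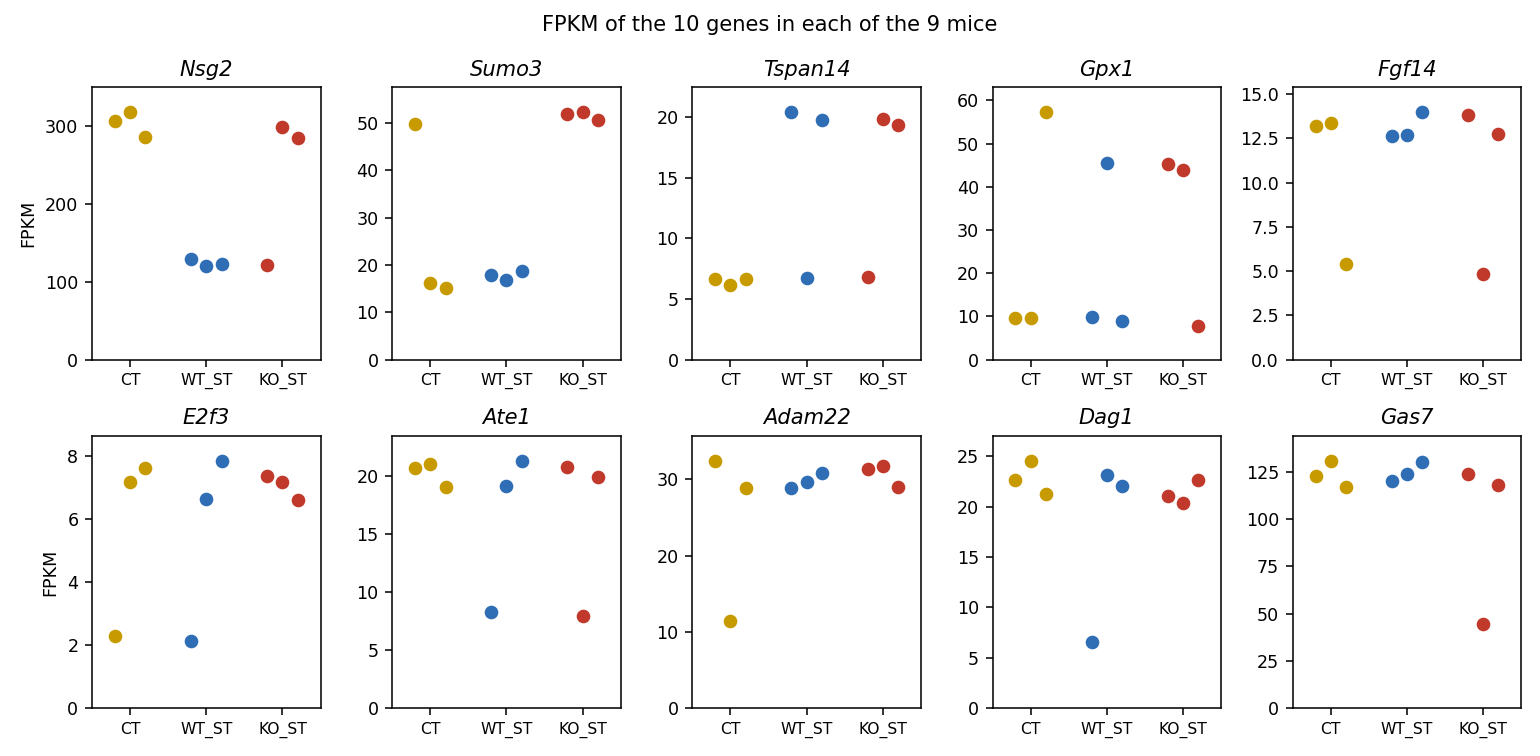
FPKM (linear axis from 0) of each of the 10 genes in each mouse, 1 point per mouse and coloured by group (CT yellow, WT_ST blue, KO_ST red), with replicates 1 to 3 from left to right. Nsg2, Sumo3, Tspan14 and Gpx1 have 4 or 5 low mice, Fgf14, E2f3 and Ate1 have 2, and Adam22, Dag1 and Gas7 have 1.

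The separation was described by ordering the mice by FPKM and taking the widest fold between neighbours. A gene counted as at 2 levels where this fold was at least 1.5 and wider than the range within either level. With at least 2 mice at each level, 7 of the 10 genes met this, against 1.41% of the 14338 tested genes with values above 0 in all mice. With a single mouse allowed at a level, all 10 met it, against 3.37%, or 483 genes. The members were chosen for this pattern, so nothing is read from these counts. The fold at the step was 2.19 for Nsg2, 2.66 for Sumo3, 2.84 for Tspan14, 2.33 for Fgf14, 2.90 for E2f3, 2.303 for Ate1, 2.52 for Adam22, 3.12 for Dag1 and 2.62 for Gas7. Within a level of 2 or more mice the fold of highest over lowest ran from 1.04, over the low mice of Ate1, to 1.31, over the high mice of Gpx1, and the definition requires it to be below the step.

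The sets of low mice differed from gene to gene, and no pair of the 10 genes had the same or the opposite set. WT_ST replicate 1 was low for 6 of the genes (Nsg2, Sumo3, Gpx1, E2f3, Ate1 and Dag1), CT replicate 2 for 4 and KO_ST replicate 3 for Gpx1 alone. The other mice were low for 2 or 3. No mouse was therefore low, and no mouse high, for all of them. CT replicate 1, the deepest library with 61150128 reads, was low for 3 genes, and KO_ST replicate 1, the shallowest with 43778471 reads, for 2.

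**Figure D2:**
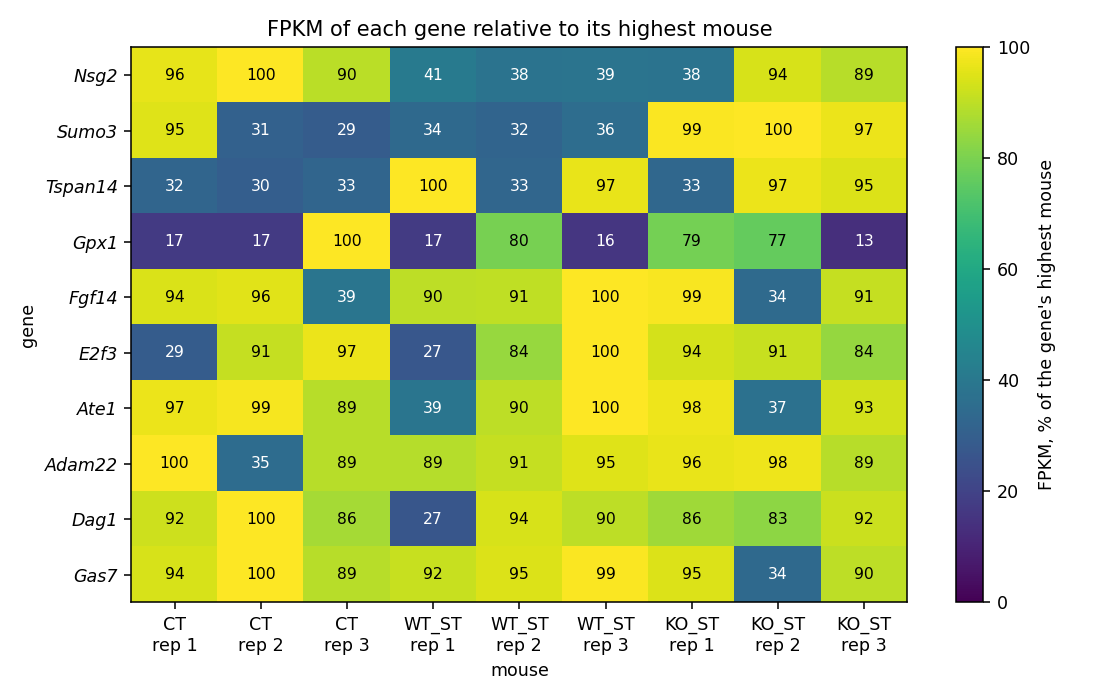
FPKM of each gene (rows) in each mouse (columns) as a percentage of that gene's highest mouse, with the percentage printed in each cell and dark colours for low values. The dark cells fall in different mice from row to row, and WT_ST replicate 1 has the most, in 6 of the 10 genes.

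Other genes had the same low mice as some of the 10. For Gas7, 33 other tested genes were low in KO_ST replicate 2 alone, and the widest step was that of Jund, a subunit of the transcription factor AP-1, at an FPKM of 0.665 in that mouse and 23.2 to 32.2 in the others. For Dag1, 20 genes were low in WT_ST replicate 1 alone, led by Mcc at 0.326 against 1.92 to 2.69. For Adam22, 55 genes were low in CT replicate 2 alone, led by the zinc finger gene Zfp781 at 0.00924 against 0.184 to 1.61, where the low value rested on 3 reads. Single mice thus differed in how many tested genes were low in them alone, from 10 in CT replicate 1 to 56 in CT replicate 2. Fgf14 shared its 2 low mice with 3 genes, led by Urgcp at 2.304 and 3.50 against 12.3 to 15.7. Ate1 shared its low mice with 2 genes, led by 3110039I08Rik at 12.5 and 12.9 against 20.5 to 24.6, and E2f3 with Ino80d, at 1.27 and 1.51 against 2.55 to 2.88. For Nsg2, Sumo3, Tspan14 and Gpx1 no tested gene had the same low mice. The likeness here is the set of low mice, over 9 mice, and says nothing of a common control.

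The number of reads followed the FPKM. Counted as CPM (reads scaled to library size), 7 of the 10 genes again lay at 2 levels with at least 2 mice each, against 1.40% of tested genes, and 193 genes had the same low mice by both measures. The ratio of reads to FPKM, after depth was taken out, is proportional to the transcript length behind the FPKM. By this ratio, 0 of the 10 genes lay at 2 levels, against 0.0279% of tested genes. Its range over the 9 mice was 0.0836% for Nsg2, 0.0847% for Gas7, 0.562% for Dag1, 0.612% for Gpx1, 1.04% for Tspan14 and 1.71% for Sumo3. Wider ranges were found for Ate1 (2.38%), Fgf14 (4.07%), Adam22 (4.97%) and E2f3 (8.74%), while tested genes had a median of 0.202% and a 90th percentile of 3.34%. These ranges are small beside the 2.64-fold to 7.43-fold ranges of FPKM, so the reads are nearly a fixed multiple of the FPKM and are not an independent measure of it.

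The ratio has the FPKM in its denominator, so its small movements are also only described. It separated the same mice without overlap for 5 of the 10, higher in the low mice for Sumo3 and Ate1 and lower for Gpx1, Fgf14 and Adam22, where Adam22 had a single low mouse. For Sumo3, the length behind the FPKM was 2.73 to 2.74 kb in the low mice and 2.70 to 2.71 kb in the high mice, and for Ate1 it was 4.99 kb against 4.86 to 4.91 kb. For Adam22 it was shorter in the low mouse, at 8.94 kb against 9.23 to 9.38 kb, and for Fgf14 at 3.14 to 3.21 kb against 3.23 to 3.27 kb. For Gpx1 the ratio was 52.51 to 52.75 reads per FPKM in the low mice and 52.78 to 52.84 in the high mice, but its length, which is scaled by total reads, overlapped at 1.065 to 1.071 kb against 1.069 to 1.076 kb. The ratio of the other 5 overlapped. For Gas7, however, the length did not, at 7.10 kb in the low mouse against 7.06 to 7.08 kb in the others. Of the 483 genes with a single mouse allowed at a level, 212 (43.9%) had a ratio that separated the same mice, higher in the low mice for 169 and lower for 43. The members were part of these 483 genes, and the part of transcript assignment in the levels was not tested.

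**Figure D3:**
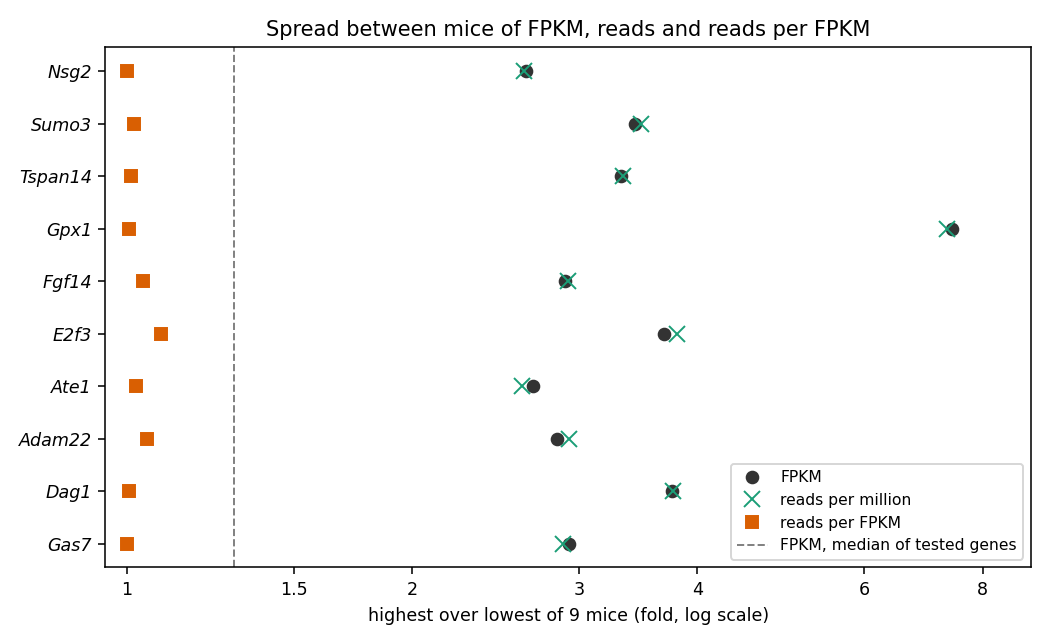
Highest over lowest of the 9 mice (log axis) for FPKM (dots), CPM (crosses) and reads per FPKM (squares) of each of the 10 genes, with the median FPKM fold of the tested genes, 1.298, as a dashed line. FPKM and CPM nearly coincide at 2.61-fold to 7.43-fold, whereas reads per FPKM stay near 1.

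All 10 genes are listed with more than 1 RefSeq transcript, from 2 for Tspan14, Fgf14 and E2f3 to 7 for Dag1, a feature found in 35.0% of the tested genes. Among the 483 genes above, 53.8% were so listed. The share at 2 levels was 2.39% of tested genes with 1 transcript, 5.17% with at least 2 and 7.51% with at least 4. In the GENCODE annotation of GRCm38, the start sites of the matched transcripts lie 484225 bases apart in Fgf14, 32486 in Tspan14, 7612 in Sumo3 and 1672 in E2f3. In Ate1, Dag1, Gas7 and Adam22 they lie 839 to 99 bases apart, and Nsg2 and Gpx1 had a single matched model. This matching is partial, so other annotated starts can be missing. The matched Gas7 models start at 67586536 and 67586701, inside a locus that begins at 67453257. The 3 transcripts listed for Nsg2 share its single model, whereas its RefSeq start windows end at 32000418 and 32000699. Annotated lengths run from 0.487 to 2.63 kb in Sumo3, 1.53 to 4.74 kb in Ate1, 1.47 to 7.07 kb in Gas7 and 2.77 to 9.16 kb in Adam22. The length behind the FPKM lay near the longest model for Gas7, at 7.06 to 7.10 kb, for Dag1, at 5.63 to 5.66 kb, and for Gpx1, at 1.07 to 1.08 kb. For Fgf14 it lay between the models of 3.18 and 3.61 kb in the high mice. For 9181 genes with a single transcript, the same length was 1.02 times the annotated length in the median, with a 5th percentile of 0.558 and a 95th of 1.15, so it is a loose guide for a single gene. It was above every matched model for Nsg2 (2.34 to 2.35 kb against 2.24 kb), Tspan14 (2.62 to 2.65 against 2.48 kb), Sumo3 (2.70 to 2.74 against 2.63 kb) and Ate1 (4.86 to 4.99 against 4.74 kb). For Adam22 it was above the longest model of 9.16 kb in every mouse but CT replicate 2, at 9.23 to 9.38 kb. For E2f3 it ran from 4.78 to 5.20 kb, against models of 4.58 and 5.10 kb.

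Of the overlapping or nearest genes, 12 passed the expression filter, and none split the mice in the same way. Rhoa, a small GTPase gene that ends 1137 bases before Gpx1, had an FPKM of 43.3 to 55.2 over all mice. Pttg1ip and Ube2g2, on either side of Sumo3, lay at 20.5 to 26.6 and 19.8 to 21.4. Bsn and Nicn1, on either side of Dag1, lay at 43.3 to 50.7 and 53.1 to 57.4, and Sri, next to Adam22, at 18.0 to 20.9. Glp2r, which overlaps Gas7, was itself at 2 levels (0.136 to 0.882) but with other mice low. Whether reads were counted by strand is not given in the sources used here, so reads of overlapping genes cannot be told apart. SUMO genes also have closely similar copies, and how reads matching several places were treated is not given either.

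By read counts, the log2 difference of Nsg2 was -1.28 ± 0.061 (SE, n = 3 and 3) in WT_ST against CT, -0.35 ± 0.30 in KO_ST against CT and 0.93 ± 0.30 in KO_ST against WT_ST, and without KO_ST replicate 1 it was -0.03 in KO_ST against CT. For Sumo3 it was -0.59 ± 0.43, 0.94 ± 0.43 and 1.53 ± 0.056 in the same order, and without CT replicate 1 it was 0.19 in WT_ST against CT and 1.72 in KO_ST against CT. For Tspan14 it was 1.28 ± 0.37, 1.27 ± 0.36 and -0.01 ± 0.50. Where the mice of each group stood at a single level, the SE was small. This held where the levels of the groups differed, as for Nsg2 in WT_ST against CT and Sumo3 in KO_ST against WT_ST. It also held where the groups shared a level, as for Gas7 in WT_ST against CT (0.02 ± 0.062). Gpx1, with both levels in every group, had differences of -0.23 ± 0.88, 0.37 ± 0.85 and 0.60 ± 0.79. With a mouse left out, its difference ran from -1.42 to 1.15 in WT_ST against CT, from -0.02 to 1.75 in KO_ST against CT and from 0.23 to 1.79 in KO_ST against WT_ST.

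At a fold above 1.2 and p under 0.05 before adjustment by edgeR, Nsg2 and Tspan14 were called in WT_ST against CT, where 3.72% of tested genes were. Tspan14 alone was called in KO_ST against CT (4.63%), and Nsg2 and Sumo3 were called in KO_ST against WT_ST (2.96%). By FPKM with limma, Nsg2 and Tspan14 were called in WT_ST against CT (2.47%) and Nsg2 and Sumo3 in KO_ST against WT_ST (2.0%), and Sumo3 joined Tspan14 in KO_ST against CT (3.56%). Groups without overlap in FPKM were found for Nsg2 and Tspan14 in WT_ST against CT (14.0% of tested genes), Sumo3 and Tspan14 in KO_ST against CT (16.5%) and Sumo3 in KO_ST against WT_ST (11.1%). For Nsg2 all WT_ST mice stood at the opposite level to all CT mice, and for Sumo3 to all KO_ST mice, whereas the working description of the 10 genes was that they had no clear pattern by group. Gpx1 alone had both levels in every group. Because the levels chose the genes, these calls are a description. Without KO_ST replicate 2, or without KO_ST replicate 3, Nsg2 was no longer called by counts in KO_ST against WT_ST. By FPKM, 0 of the 10 were called in KO_ST against CT without CT replicate 2, KO_ST replicate 2 or KO_ST replicate 3.

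**Figure D4:**
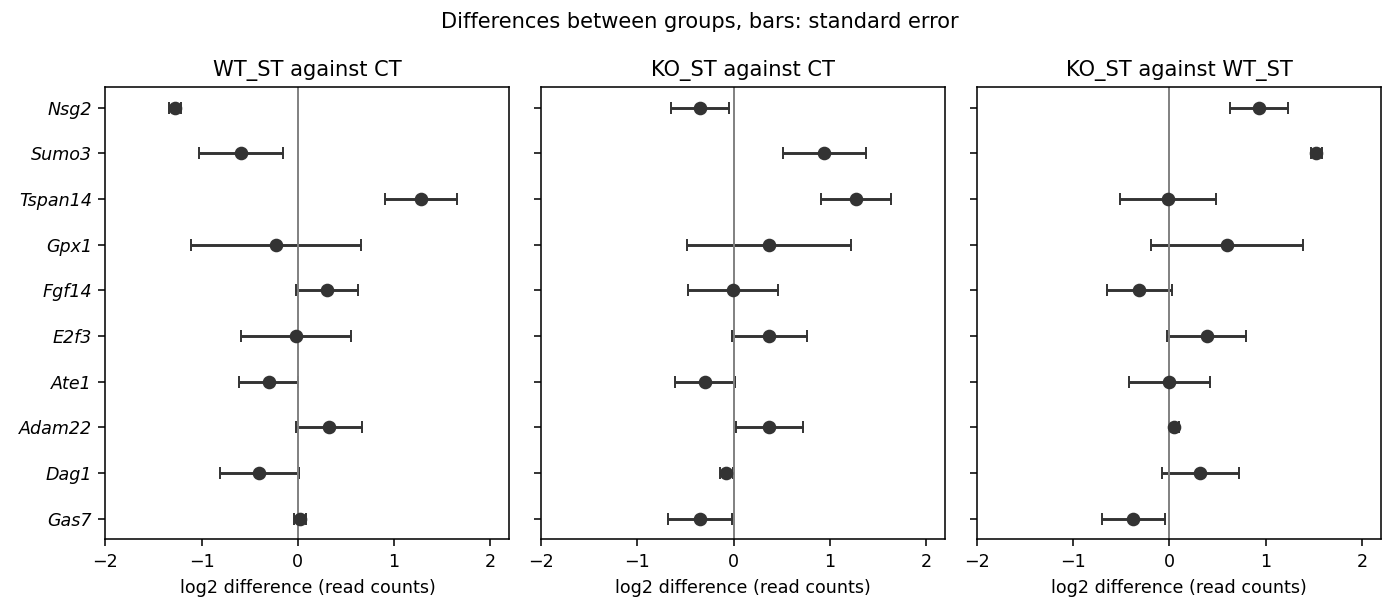
Log2 difference of read counts (horizontal axis) of each gene in the 3 comparisons, with points for the edgeR estimate from 3 mice a group and bars for its standard error. Bars are short where the mice of each group stood at a single level. This held where the levels of the groups differed, as for Sumo3 in KO_ST against WT_ST at 1.53. It also held where the groups shared a level, as for Gas7 in WT_ST against CT. Bars are long for Gpx1.

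The relatives and pathway partners of the 10 genes, 110 genes in 10 lists, were then examined. Of these, 107 were in the data and 99 passed the expression filter, and 0 of the 99 lay at 2 levels, even with a single mouse allowed at a level. Their median fold of highest over lowest mouse was 1.26, against 1.298 over all tested genes. The 10 genes were chosen for a wide fold and their partners were not, so nothing is read from the contrast between them. Sumo2, whose product closely resembles that of Sumo3, lay at an FPKM of 94.9 to 112 over the 9 mice. Nsg1, the closest relative of Nsg2, lay at 121 to 143, and Adam10, the partner of Tspan14, at 20.1 to 21.5. Gpx4, the glutathione peroxidase that acts on lipid peroxides, lay at 186 to 219.

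The other FGF homologous factors, Fgf11, Fgf12 and Fgf13, lay at 4.34 to 6.85, 14.2 to 16.5 and 48.5 to 60.5. Ubr1, a ligase that reads N-degrons, lay at 7.31 to 8.90, and Lgi1, the ligand of ADAM22, at 34.8 to 42.1. Adam23, another LGI receptor, lay at 23.8 to 30.9, and Dmd, which encodes the dystrophin that binds dystroglycan, at 9.46 to 11.7. Of the 99 partners, 7 had a fold of highest over lowest mouse above 2. These were Sgcd (6.30), Sntb2 (3.36), E2f2 (3.21), Fes (2.86), Arhgap4 (2.55), Pacsin2 (2.27) and Pstpip1 (2.23). Sgcd, a sarcoglycan of the dystroglycan complex, ranged from an FPKM of 0.114 to 0.719, with values spread between these ends. Of the 7, Pacsin2, an F-BAR protein, had the highest level, at 5.96 to 13.5.

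By read counts with edgeR, 0 of the 99 were called higher and 2 lower in WT_ST against CT, where 3.72% of all tested genes were called. These were Tspan15, a tetraspanin (log2 difference -0.26, adjusted p = 0.662), and Gpx3, the secreted glutathione peroxidase (-0.40, adjusted p = 0.662). With a mouse left out, the call of Tspan15 was lost in 4 of 6 fits and that of Gpx3 in 5 of 6, and the call of Tspan15 was also lost with DESeq2. In KO_ST against CT, 2 were called higher and 2 lower, beside 4.63% of all. The sodium channel genes Scn1a (0.37, adjusted p = 0.513 by edgeR) and Scn8a (0.30, adjusted p = 0.515) were higher, and E2f2 (-1.07, adjusted p = 0.486) and Fes, an F-BAR kinase (-0.67, adjusted p = 0.527), were lower by the unadjusted criterion. In KO_ST against WT_ST, Gpx3 was called higher (0.37, adjusted p = 0.644 by edgeR) and Fes lower (-0.75, adjusted p = 0.881), beside 2.96% of all. With a mouse left out, the call of Fes was lost in 5 of 6 fits against CT and in 4 of 6 against WT_ST, and that of Scn8a without KO_ST replicate 2. None of these named differences passed 0.05 by edgeR once p was adjusted (Benjamini-Hochberg) over the tested genes. The median log2 difference over the 99 genes together was 0.00 in each comparison, as it was for all tested genes. Single lists had medians from -0.09, for the E2F and RB family in KO_ST against WT_ST, to 0.16, for the LGI receptors in KO_ST against CT.

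**Figure D5:**
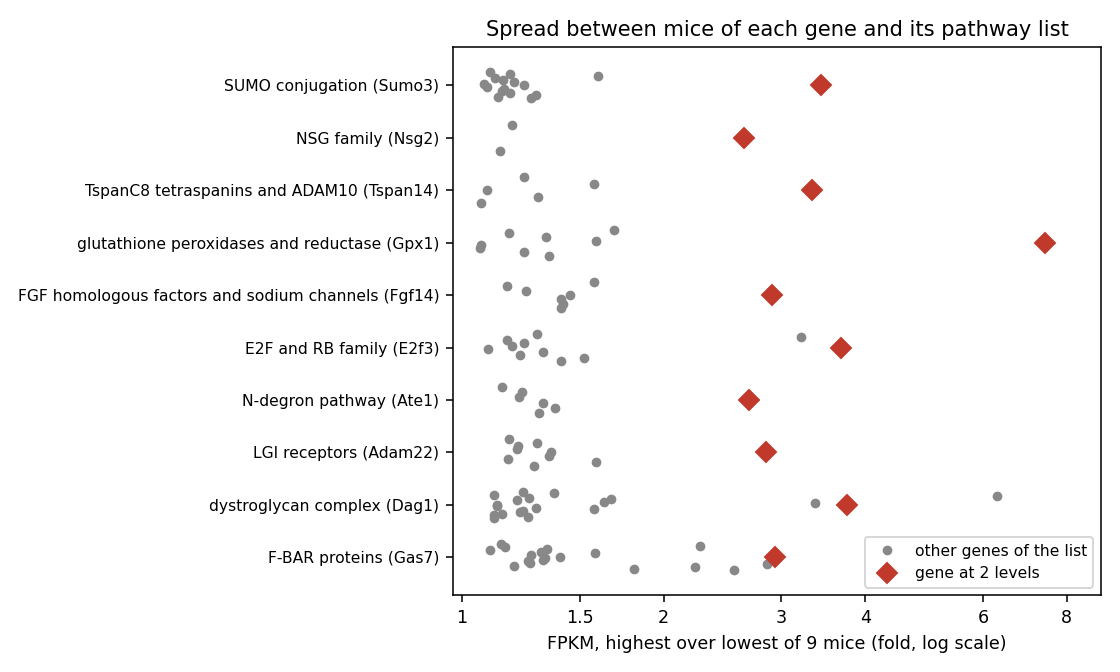
Highest over lowest FPKM of the 9 mice (log axis) for each of the 10 genes (red diamonds) and for the tested genes of its pathway list (grey dots), 1 list per row. The grey dots have a median of 1.26, and the 7 above 2 belong to the E2F, dystroglycan and F-BAR lists. The diamonds stand for genes chosen for a wide fold.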

How the data were processed

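Stranded mRNA libraries were made from prefrontal cortex RNA of 9 mice. Per the labels, HISAT2 2.1.0, Bowtie2 2.3.4.1 and StringTie 1.3.4d were used with the mm10 genome. The authors deposited, for each mouse and each of 24532 genes, a read count without normalization. The authors also deposited the FPKM of each gene, scaled for transcript length and depth. How the reads were counted is not given in the sources used here. Depth was 43778471 to 61150128 reads per mouse.

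Read counts were tested with edgeR 4.0.16 (quasi-likelihood, TMM factors) in R 4.3.3, and log2(FPKM + 1) after quantile normalization with limma 3.58.1, using only the mice of the groups compared and genes with a mean of at least 30 reads. A gene was called at a fold above 1.2 with p under 0.05 before adjustment. A fold from log2(FPKM + 1) understates the change of low genes. Adjusted p-values are Benjamini-Hochberg over all 14370 tested genes. DESeq2 1.42.0, other filters, pseudocounts and normalizations, and leaving out each mouse were alternatives. The labels give each sample as a separate replicate. The p-values set a group difference against the spread between these mice, which both programs estimate with information shared over genes.

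Reads per FPKM were divided in each mouse by the median over genes. Positions and start windows came from RefSeq (GRCm38.p6) and transcripts from GENCODE M21. Named genes are the 10 genes, Fkbp5, relatives that were called or are closest, the gene with the widest step among those with the same low mice, and nearest neighbours. The partners with a fold above 2 and some further relatives were named after their values were seen. The 10 genes, the lists and the tests were chosen with earlier results of these data known.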

Additional observations from a re-analysis of the deposited data

How the results depend on the processing

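With at least 2 mice at each level, 7 of the 10 genes lay at 2 levels, and with a mouse left out 5 to 7 did by FPKM and by CPM, and 0 by reads per FPKM. The lowest value came without WT_ST replicate 1 or without KO_ST replicate 2, which leaves a single low mouse for some genes. The number of tested genes at 2 levels was 202, and 117 after quantile normalization, 115 with 1 added to the FPKM, 405 with a lower limit on the fold, 94 with a fold of at least 2 and 483 with a single mouse allowed, with 203 to 234 when a mouse was left out. Of the pathway genes, 3 lay at 2 levels with that lower limit, and 0 to 2 with a mouse left out.

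Calls also depended on the setting. With a pseudocount of 0.1, 544 genes were called by FPKM in WT_ST against CT and 445 in KO_ST against WT_ST, instead of 355 and 287. Of the 10 genes, 1 was called by FPKM in each comparison when every gene with a read was kept. By counts, 2 were called in KO_ST against CT when all 9 mice shared a fit. Of the pathway genes, 1 was called in WT_ST against CT with DESeq2. Without quantile normalization, the share of calls by FPKM that were higher went from 46.8% to 34.1% in WT_ST against CT and from 43.2% to 28.5% in KO_ST against CT.

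Leaving out a mouse gave, by counts, 400 to 723 called genes in WT_ST against CT, 499 to 882 in KO_ST against CT and 313 to 644 in KO_ST against WT_ST, and by FPKM 277 to 542, 410 to 734 and 245 to 477. Of the 10 genes, 2, 1 to 2 and 1 to 3 were called by counts, and 1 to 2, 0 to 2 and 1 to 2 by FPKM. Of the pathway genes, 0 to 3, 3 to 7 and 1 to 2 were called. In WT_ST against CT, 542 genes were called by FPKM without CT replicate 3, 1 of the 10 genes by FPKM without WT_ST replicate 1 or 3 or any CT mouse, and 1 and 0 pathway genes without WT_ST replicates 1 and 3. In KO_ST against CT, 2 of the 10 genes were called by counts without CT replicate 1 or 3 and 7 pathway genes without CT replicate 1. By FPKM there, 1 of the 10 was called without CT replicate 3 or KO_ST replicate 1. In KO_ST against WT_ST, 644 genes by counts and 477 by FPKM were called without KO_ST replicate 3, 1 of the 10 genes by FPKM without KO_ST replicate 2 or 3 or any WT_ST mouse, and 1 pathway gene without WT_ST replicate 2 or KO_ST replicate 2. Over 573 alternatives of the differences of single genes by counts, a call was lost in 25 and gained in 9. The sign turned in 36, all of differences that were not called, such as Gpx1 in WT_ST against CT, at 1.15 without CT replicate 3.

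Same-numbered mice of different groups had correlations of their deviations between -0.247 and 0.157, against -0.194 to 0.162 for other pairs, so the replicate numbers were not taken to pair mice. With the replicate number as a block, 2 of the 10 genes were called by counts in KO_ST against CT and 1 pathway gene in WT_ST against CT, and the calls of Tspan15 in WT_ST against CT and of Fes in KO_ST against WT_ST were lost. That of Tspan15 was also lost when all 9 mice shared a fit. The fewest reads on any of the 10 genes in a mouse were 421, for Gpx1.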
